A study of Mus musculus with 2 samples.

Results

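The gonadal fat pad RNA gave 19199 splice junctions that carried flag C, lacked flag A and had an irreproducible discovery rate (IDR) of 0.1 or less, out of 515046 junctions in the deposited table (3.73%). They were chosen by those values alone, so their flags, read counts and IDR describe the choice. The tissue came from C57BL/6J mice, adult, 8 weeks old, as mixed-sex littermates pooled before extraction. The study holds 1 group of 2 libraries, labelled biological replicates 1 and 2, with no treatment and no second tissue, and both carry the same donor label. Poly-A RNA longer than 200 bases was read as stranded pairs of 76 bases. Each junction has read counts for 2 replicates, called R1 and R2, and nothing in the sources used here ties R1 or R2 to a given library.

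A splice junction is a read that skips an intron and so records which 5′ splice site (donor) was joined to which 3′ splice site (acceptor). Most introns begin with GT and end with AG, and the spliceosome chooses among nearby sites of this kind. Joining a different pair can lengthen or shorten an exon, leave an exon out or bring an additional one in. A shift of a site by a multiple of 3 bases keeps the reading frame of a coding exon, while any other shift changes it.

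What the letters A and C stand for is not stated in the sources used here, so both flags were checked against a gene annotation. Of 174514 junctions with flag A, 166375 (95.3%) fitted exactly 1 place in GENCODE M21 when runs of consecutive introns and the exon between them were compared by length on the same chromosome and strand. With the strands exchanged, 23 fitted. Flag C was read from letters: where a junction without flag A used an acceptor moved into an annotated exon, the skipped bases ended in AG in 1772 of 1772 cases, and where it used a moved donor, the bases began with GT in 952 of 952. Over all positions of the same exons, 7.70% of neighbouring base pairs read AG and 5.29% GT. Among reproducible junctions without flag C, 1 of 29 moved acceptors ended in AG and 0 of 61 moved donors began with GT, which allows a share of up to 4.92% (3 counts of the total, covering counting error only). Of those 61 donors, 35 began with GC.

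The reads of several moved sites show what such a choice does to a transcript. The sequences below run 5′ to 3′ along the spliced transcript that uses the flag A site, from GENCODE M21 transcripts. Capitals mark the bases that the junction without flag A removes together with the intron. They were chosen because they are among the moved sites with most reads.

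Cfd, acceptor moved 3 bases: gagcggctgtatgtgCAGcacagccccgag
Lep, acceptor moved 3 bases: gacatttcacacacgCAGtcggtatccgcc
Fau, acceptor moved 3 bases: gcgtccgcgggctagTAGccaacatgcagc
Psap, acceptor moved 3 bases: atggacccctatgagCAGaatctggtccag
Sgta, acceptor moved 3 bases: gccacttccagcaagCAGgagatgccacag
Clu, acceptor moved 3 bases: tggatttcttaagagAAGgtgaagatgacc
Plin4, acceptor moved 4 bases: gaggccttccagatgACAGacatgaccatg
Ddx17, donor moved 6 bases: gaggaggggGTAAGGgaggccgctcacgat
Srsf7, donor moved 9 bases: atcgagGTATTTCCAatcccgctcaaggtc

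In all 7 acceptor examples the capitals end in AG. In both donor examples they begin with GT.

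The junction with most reads belongs to Cfd, which encodes adipsin (complement factor D), a protease secreted by fat cells. It lies at chr10:79353726-79354203 (mm9, plus strand), has 51722 reads in R1 and 36232 in R2, and removes 478 bases. The flag A junction from the same donor removes 475 bases and has 23846 and 15451 reads. The longer intron therefore took 68.4% of their summed reads in R1 and 70.1% in R2, and the shorter form was the minor one in both replicates. GENCODE M21 lists the longer intron as well, although the junction table gives it no flag A.

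Lep encodes leptin, the satiety hormone of fat cells, and a leptin mRNA that lacks a single glutamine codon at this exon border is known in mouse. Its junction at chr6:29019096-29020825 had 234 reads in R1 and 2156 in R2, and the flag A junction 3 bases shorter had 1005 and 9459. Both junctions had about the same share of R2 over R1, so the usage of the moved acceptor was 18.9% in R1 and 18.6% in R2. The reads of Lep differed between replicates far more than the choice of its acceptor.

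Fau encodes a ubiquitin-like protein fused to a ribosomal protein. Its moved acceptor had 714 and 1146 reads beside 1047 and 2020 for the flag A site, a usage of 40.5% and 36.2%. Sgta, a co-chaperone, used its moved acceptor in 319 and 291 reads beside 86 and 111, and there the site without flag A was the major one. Psap, the precursor of the saposins of the lysosome, had 395 and 360 reads at the moved site beside 5448 and 6517. Clu encodes clusterin, a secreted chaperone, and had 328 and 196 reads beside 55700 and 37887, a usage of 0.557% of the summed reads. Moved acceptors thus ranged from a fraction of a percent to most of the reads at their donor.

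Donor shifts are shown by Ddx17 and Srsf7. Ddx17, an RNA helicase, had 598 and 531 reads at the donor 6 bases upstream and 434 and 258 at the flag A donor. The moved donor was the major one in both replicates, at 57.9% and 67.3%. Srsf7, a splicing factor of the SR family, had 249 and 385 reads at the donor 9 bases upstream and 57 and 50 at the flag A donor, a usage of 81.4% and 88.5%. Plin4, perilipin 4 of lipid droplets, had 156 and 297 reads for the acceptor 4 bases downstream, beside 1318 and 2908, and this shift is not a multiple of 3.

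**Figure D1:**
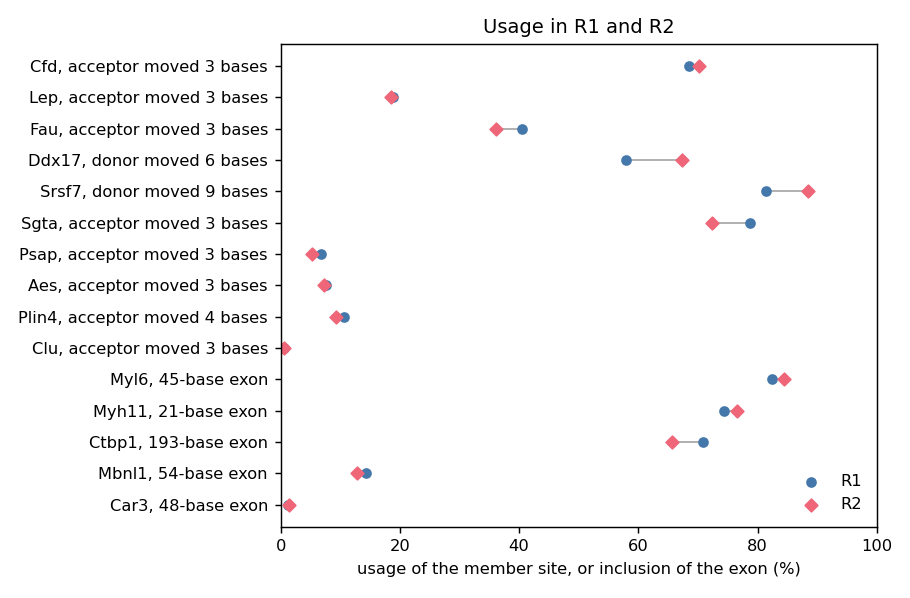
Usage of 10 moved sites and inclusion of 5 exons (x axis, percent) in R1 (circles) and R2 (diamonds), with 1 row for each. The Cfd site sits at 68.4% and 70.1% and the Lep site at 18.9% and 18.6%, and the Myh11 exon at 74.4% and 76.6%.

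Depth and tissue set the frame for these counts. The junction table holds 19172220 reads in R1 and 21609924 in R2, of which the 19199 junctions took 534511 and 526576 (2.60% of all junction reads). Their median was 13 reads and their range 5 to 87954. In 780 of them R1 or R2 had 0 reads, so an IDR of 0.1 or less did not require reads in both. The gene tables sum to 47106979 and 54129473 expected counts for replicates 1 and 2. All 5 adipocyte markers had at least 1 TPM (transcripts scaled to a fixed total per library) in both libraries, with summed levels of 5841 and 7163 TPM, and so did all 5 markers of epididymal epithelium, with 27407 and 18930 TPM. The 2 ovary markers, Cyp19a1 and Amh, summed to 0.32 and 0.31 TPM, and the brown fat marker Ucp1 had 0.21 and 0.45 TPM. All 4 macrophage and all 3 endothelial markers passed 1 TPM, at sums of 129 to 217 TPM. The labelled tissue thus held its fat markers together with those of the neighbouring epididymis, whose part in the junction counts was not tested. In a bulk sample, fewer cells of a type and less RNA per cell cannot be told apart.

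The 19199 junctions were sorted by which end they share with any flag A junction. Both ends were shared by 2689 (14.0%), the donor alone by 4730 (24.6%), the acceptor alone by 5277 (27.5%) and neither end by 6503 (33.9%). Among the 4523 reproducible junctions with neither flag, 91.2% shared no end and 1 junction shared both. Among the 116987 junctions with flag C alone and IDR above 0.1, 9.42% shared both ends and 42.4% none.

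**Figure D2:**
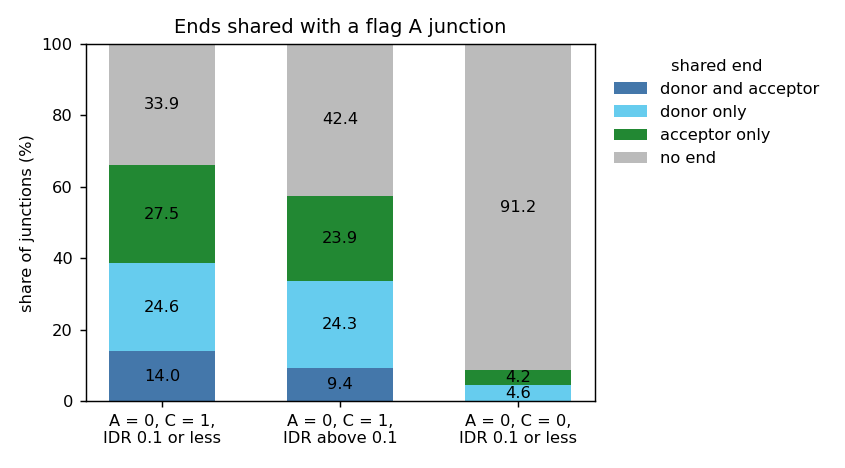
Share of junctions (y axis, percent) by the end they share with a flag A junction, for the 19199 junctions with flag C alone and IDR of 0.1 or less (left), those with flag C alone above that limit (middle) and reproducible junctions with neither flag (right). The share with no flag A end is 33.9%, 42.4% and 91.2%.

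Short shifts made up much of the class that shared a donor. In 1588 of these 4730 junctions the acceptor lay within 30 bases of that of the most-read flag A partner, and 860 of the 1588 shifts (54.2%, Wilson interval 51.7 to 56.6) were multiples of 3. The commonest were 3 bases downstream (402 junctions), 4 downstream (182), 3 upstream (149) and 5 downstream (119), while 6 downstream was seen in 51. Shifts of exactly 3 bases thus made up most of the 860, and the share describes mainly that distance. For pairs of flag A junctions from the same donor, 563 of 757 shifts within 30 bases (74.4%) were multiples of 3. Among those, 236 were 3 bases downstream and 163 were 3 upstream. For junctions with flag C alone above the IDR limit 39.0% were multiples of 3.

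Donor shifts peaked at other distances. Of the 5277 junctions that shared an acceptor, 748 had a donor within 30 bases, and 228 of those shifts (30.5%, interval 27.3 to 33.9) were multiples of 3. The commonest were 4 bases downstream (66 junctions) and 4 upstream (56), while 3 downstream was seen in 8. Pairs of flag A junctions at 1 acceptor had 45.7% of such shifts in multiples of 3. The intervals treat junctions as independent, although some share a site.

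**Figure D3:**
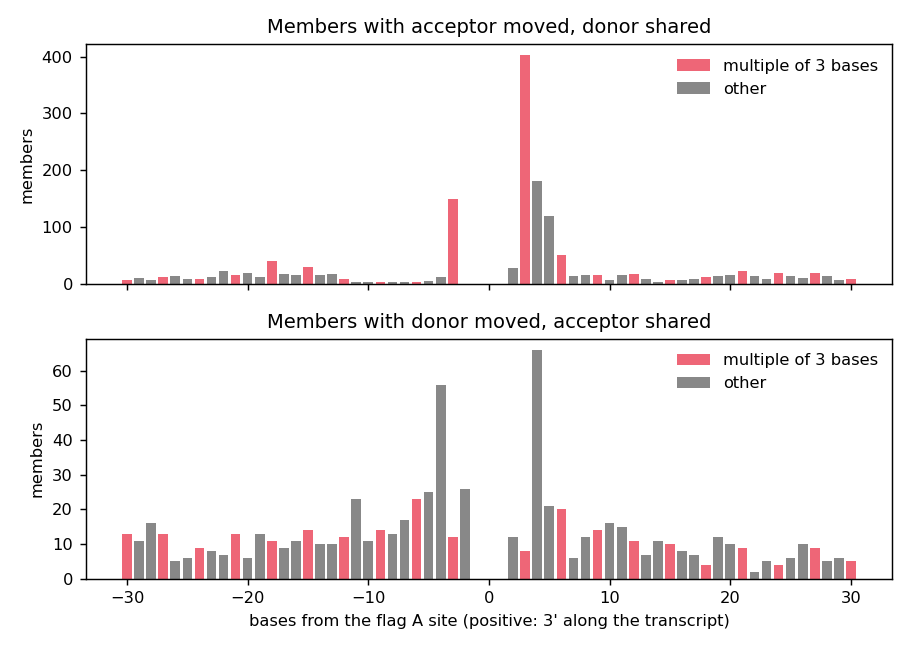
Number of junctions (y axis) at each shift of the free site from the flag A site (x axis, bases, positive downstream), for moved acceptors (top) and moved donors (bottom), with multiples of 3 in red. Acceptors peak at 3 bases downstream with 402 junctions and donors at 4 downstream with 66.

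Usage was computed as the reads of a junction over its own reads plus those of the most-read flag A junction at a shared end. Over the 12696 junctions that share an end, the median was 7.62%, and 1249 (9.84%) exceeded 50%. At 1717 (13.5%) it was under 1%. The median was 13.7% at an IDR limit of 0.01 and 19.4% over members of 20 reads or more. A read minimum selects on member reads, which also enter the usage. In a tail of members the flag A choice was the minor one.

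That tail holds named genes. Qsox1, a sulfhydryl oxidase, had 1119 and 1391 reads for its junction at chr1:157625982-157626847 and 1 read in each replicate for the flag A partner. Serpinh1, the collagen chaperone HSP47, had 1939 and 3411 reads for a junction at chr7:106497975-106501562 that skips a 44-base exon, a usage of 95.1%. Prpf19, a core spliceosome factor, had 1171 and 1579 reads against 113 and 175 for its partner. Adrb3, the β3-adrenergic receptor of adipocytes, had 1517 and 961 reads for a 343-base intron at chr8:28336855-28337197, against 128 and 92 for the 197-base flag A intron from the same donor. The donor lies in Adrb3, and no gene was named at the acceptor of the 343-base intron.

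Plin1, perilipin 1, the main coat protein of the lipid droplet, had 952 and 1377 reads for a junction at chr7:86877042-86877627 with a usage of 77.9%. Ntsr2, a neurotensin receptor, had 2540 and 1020 reads at chr12:16664999-16665170 against 131 and 45. Penk, the enkephalin precursor, had 570 and 476 reads for an intron of 488 bases, and its 489-base flag A partner had 0 and 1. Cd151, a tetraspanin, had 1407 and 1377 reads against 376 and 436. In each of these the junction without flag A was the major one in R1 and in R2.

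Among members of 50 reads or more, the highest usage within each class included junctions whose flag A partner had few reads. Lmo1, a LIM-domain cofactor, had 245 and 264 reads at chr7:116287184-116318451 and 0 and 1 for its partner. A junction whose acceptor lies in Slc45a3, a sugar transporter, had 201 and 167 reads against 0 and 1, and no gene was named at its donor. Wfdc11, a whey acidic protein family gene, had 172 and 192 reads for the skip of a 101-base exon, against 7 and 4. Ppfia1, a liprin of focal adhesions, had 112 and 156 reads for the skip of 2 exons of 90 bases in all, against 6 and 1. The flag A partner was at most 7 reads in either replicate in all 4.

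Members that share both ends join a donor and an acceptor that flag A junctions use with other partners, and 1643 of them could be laid on an annotated transcript as the skip of whole exons. A single exon was skipped in 1433, 2 exons in 151 and 3 or more in 59. Of the single exons 596 (41.6%, interval 39.1 to 44.2) had a length in multiples of 3, beside 40.7% of 19011 internal exons of the same genes. The median usage of a single-exon skip was 4.52%.

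The skips with most reads include App, the amyloid precursor protein, with 439 and 438 reads for the loss of a 57-base exon, a usage of 24.8%. Lcn5, an epididymal lipocalin, skipped a 137-base exon in 440 and 261 reads, which is 2.45% against its partner. Tcf7, a transcription factor of T cells, skipped a 93-base exon in 237 and 241 reads (77.5%). Mbnl1, a splicing regulator, skipped a 36-base exon in 66 and 129 reads from one upstream donor to the next exon and in 47 and 106 to a later one. Vav2, a guanine nucleotide exchange factor, skipped an 87-base exon in 147 and 115 reads against 4 and 0. Ivd, an enzyme of leucine breakdown, had 119 reads in R1 and 1 in R2 for the skip of a 105-base exon, so that skip rests on R1.

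In the other direction, 611 extra exons lay between 2 junctions that each share 1 end with a flag A intron spanning them, with a median length of 104 bases. Both flanking junctions were listed in GENCODE M21 for 199 of them and neither for 359. Deposited contigs, the stretches covered by reads, lay over 604 of the 611. The junction reads that define these exons come from the same libraries and reach into them, so nothing is read from this. Lengths were multiples of 3 in 255 (41.7%). Inclusion, taken as the mean of the 2 flanking junctions over that mean plus the skipping junction, had a median of 11.6%.

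A pair of extra exons is shown by their letters, in capitals after the last 12 bases of the exon before, from GENCODE M21, because their lengths set the insert.

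Myh11, 21-base exon: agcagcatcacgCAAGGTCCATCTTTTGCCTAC
Mbnl1, 54-base exon: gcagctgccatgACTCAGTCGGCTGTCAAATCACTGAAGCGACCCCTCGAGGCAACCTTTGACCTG

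The 21-base exon of Myh11, smooth muscle myosin heavy chain, separates the SM-B from the SM-A form. Its upstream junction had 221 and 315 reads, its downstream junction 209 and 262 and the skip 74 and 88, an inclusion of 74.4% in R1 and 76.6% in R2. The 54-base exon of Mbnl1 lies in the part of the protein known to favour the nucleus, and its inclusion was 14.3% and 12.8%. Myl6, the essential light chain of non-muscle and smooth muscle myosin, included a 45-base exon at 82.4% and 84.4%. Both myosin exons were thus the major form in this tissue.

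Ctbp1, a transcriptional corepressor, included a 193-base exon at 70.9% and 65.7%. Car3, carbonic anhydrase 3, an abundant enzyme of white fat, included a 48-base exon at 1.23% and 1.41%, and neither of its junctions was listed in GENCODE M21. That low share still rested on 282 and 418 upstream reads, against 29294 and 36904 for the skip. Lcn9, an epididymal lipocalin, included a 58-base exon at 0.953% and 0.913%, also with neither junction listed. Prrg3, a membrane protein with a Gla domain, had 0 reads in R1 for its 162-base exon and 66 and 86 in R2.

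By gene, 11665 of the 19199 junctions (60.8%) had both ends in 1 gene and 648 joined 2 genes. No end lay in a matched gene for 5415, and 1 end only for 1471. An end inside the span of a gene's flag A introns counted as in that gene, even where it matched none of its sites. The joins between 2 genes spanned a median of 67678 bases, against 1412 within 1 gene. Of the 648, 566 shared both ends with flag A junctions, and their median usage was 29.9%, against 5.06% for the same class within 1 gene.

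Many of the joined genes had like letters beside the splice. In 240 gene pairs the letters beside the splice could be compared for 510 joins, and 415 (81.4%) had at least 20 identical bases next to the splice on the donor side, the acceptor side or both. In 15123 pairs of neighbouring genes, counted by pair rather than by join, 63 (0.417%) did. A read that crosses such a stretch has the same letters in both copies up to the first difference, and the part of this in the joins was not tested. In 164 of the 566 that share both ends, the reads lay within 5% of those of a partner, against 60 of 1827 within 1 gene.

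The lysozyme pair shows the letters. The capitals mark the bases that differ between the copies in the first 30 bases after the splice, and the 30 bases before it are the same in both.

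Lyz1 and Lyz2, before the splice: ggtgagagatccccaaggcattcgagcatg
Lyz1, after the splice: ggtggcatggcgaAcacaAtgtcaaaaccg
Lyz2, after the splice: ggtggcatggcgaGcacaCtgtcaaaaccg

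The junction from Lyz1 to Lyz2 (chr10:116715244-116726174, 10931 bases) had 1267 and 1180 reads. The flag A junction from its donor had 535 reads in all and that to its acceptor 4238. Lyz2 encodes the lysozyme of macrophages and Lyz1 that of the gut.

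Globin genes gave the joins with most reads. A junction of 12951 bases at chr11:32184129-32197079 had 31698 and 15810 reads. The 134-base flag A introns at its donor and at its acceptor had 31915 and 15910, and 31682 and 15794, and their lengths fit Hba-a1 and Hba-a2, the 2 α-globin genes, equally well. The long join and both short introns differed by less than 5% in R1 and in R2. At the β-globin pair, the larger join from Hbb-bs to Hbb-bt, at chr7:110961299-110975961, had 7705 and 4819 reads, a sum of 12524, beside 17947 at its donor and 12523 at its acceptor. It was thus near its acceptor partner and well below its donor partner. The smaller join, at chr7:110962176-110976297, had 2924 and 1526 reads, a sum of 4450, beside 4451 at its donor and 4644 at its acceptor. At the α-tubulin copies, a join of 18628 bases at chr15:98763272-98781899 ended in Tuba1b with 3712 and 9331 reads. Their sum was 13043, beside 14470 at its donor and 14490 at its acceptor. A junction that overlaps it, at chr15:98762994-98781618 with 649 and 1986 reads, is listed in GENCODE M21 as an intron of Gm49450.

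Further pairs had fewer reads. Scd3 to Scd2, 2 stearoyl-CoA desaturases of fatty acid synthesis, gave 4413 and 2902 reads in their largest join, at chr19:44310467-44375701, where the flag A junction at the Scd3 donor had 111 and that at the Scd2 acceptor 8236. Gstm4 to Gstm7, glutathione S-transferases, gave 1840 and 1621 reads in their largest join, beside 756 and 13881. The counts that follow cover only joins whose letters could be compared. C4a to C4b, the complement C4 copies, had 16 such joins with 4941 reads, 5 of them within 5% of a partner. A further join that fits both C4 copies, at chr17:34867440-34948262, had 553 and 702 reads and is not among the 16. Acat2 to Acat3, acetyl-CoA acetyltransferases, had 7 such joins, 5 of them within 5%. Gm8893 to Serpina1b had 2 with 922 reads, and the larger had 0 reads in R1 and 917 in R2.

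**Figure D4:**
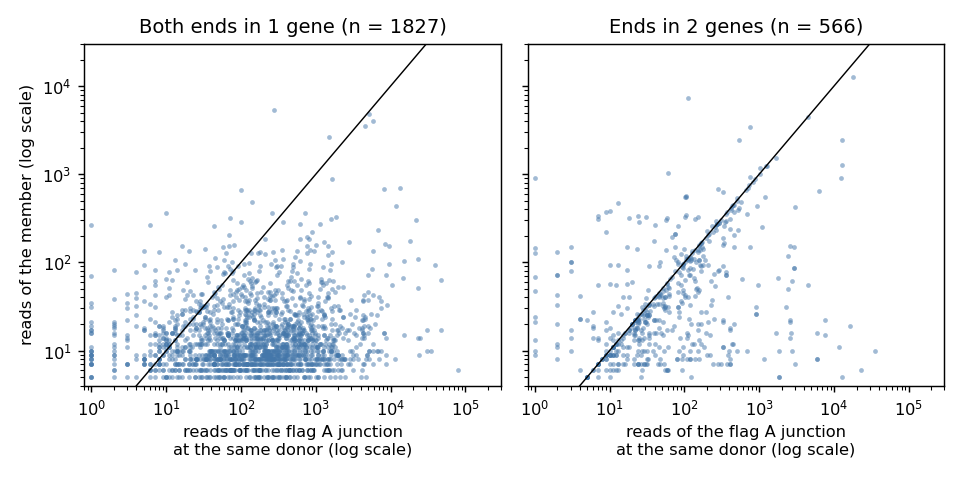
Reads of each junction that shares both ends (y axis, log scale) against the reads of the most-read flag A junction at its donor (x axis, log scale), for junctions within 1 gene (left, n = 1827) and between 2 genes (right, n = 566). The line marks equal reads. Between 2 genes, 164 of the 566 have reads within 5% of a partner at either end, and those equal at the acceptor alone lie off the line.

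Intron lengths differed with the class. The median was 1829 bases over all 19199, with a range of 32 to 1400066, against 1283 for the 139968 reproducible junctions with both flags. It was 10405 for those sharing both ends, 1121 for a shared donor, 1788 for a shared acceptor and 1487 for no shared end. Introns over 100000 bases made up 4.25%, against 0.334% of those with both flags. The longest, at chr14:6676950-8077015, had 4 and 2 reads. The shortest, at chr11:60371177-60371208, had 51 and 19.

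**Figure D5:**
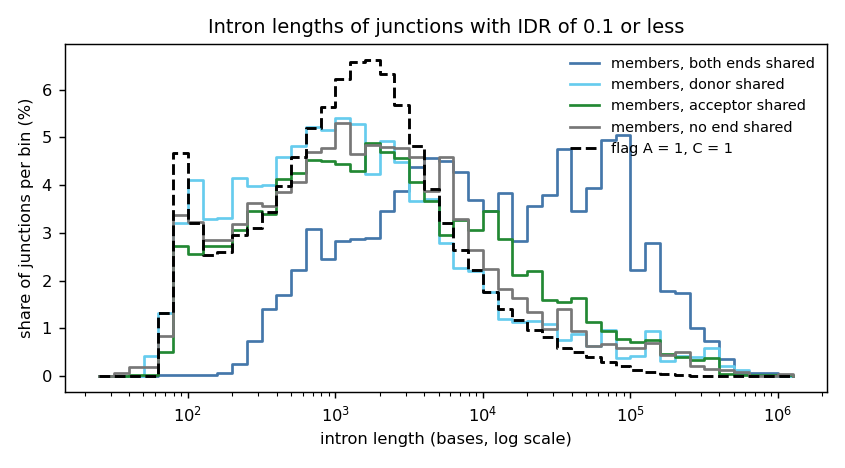
Share of junctions in each length bin (y axis, percent) by intron length (x axis, bases, log scale) for the 4 classes and for reproducible junctions with both flags (dashed). The class that shares both ends lies to the right, with a median of 10405 bases against 1283 for the dashed line.

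GENCODE M21 listed 3779 of the 19199 as annotated introns (19.7%), against 0.619% of reproducible junctions with neither flag and 4.20% of those with flag C alone above the IDR limit. Listed members had a median of 18 reads and the others of 12. Members that share no end with flag A include long runs of listed introns. Ptprv, a receptor phosphatase gene that is annotated as a processed transcript in mouse, had 33 members, all 33 listed, with 502 and 566 reads in all. Muc16, a giant mucin, had 30, all listed, with 148 and 260 reads. These genes had few flag A junctions: 2 in Ptprv and 5 in Muc16.

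Single introns of this kind carried many reads. Ces5a, an epididymal carboxylesterase, had 3237 and 5992 reads at chr8:96058613-96059522, Pgap2, an enzyme of GPI anchor remodelling, 4101 and 3789 at chr7:109378703-109379779, and the small nucleolar RNA host Snhg8 788 and 893 at chr3:123210781-123211029. Pgap2 had 18 members in all and Ces5a 12. Each of these top introns is listed in GENCODE M21 yet has no flag A.

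Most host genes of members were expressed. Every member had at least 5 reads, so the choice itself favours expressed genes and nothing further is read from the levels below. The 11665 within 1 gene fell in 5335 genes, 2703 of which held 1 member and 62 held 10 or more. Of the 13775 genes with a matched flag A junction 5082 (36.9%) held a member, and 253 further host genes had no such junction. Of the 5225 host genes with a level in the gene tables, 96.5% had 1 TPM or more in both libraries, against 88.7% of matched genes with flag A junctions, and their median was 25 and 22.4 TPM against 12.6 and 11.3.

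Plin4 held the most, 39, and none of them was listed. Their lengths were a multiple of 99 bases in 22 of the 39, against 230 of all 19199 members; this unit was chosen after the lengths were seen. The exon of Plin4 is known for tandem repeats of a short amphipathic segment. Of the 39, 25 shared no end with a flag A junction, and together they had 596 and 1186 reads, or 6.83% of the junction reads of the gene. Chd9, a chromatin remodeller, had 28 members with 1304 and 1356 reads, more than its 34 flag A junctions (1479 reads in all). Of these 28, 22 shared no end with a flag A junction and 3 were listed. Most were thus placed in Chd9 only by lying inside its span, and whether they belong to its transcripts was not tested. Firre, a long non-coding RNA of the X chromosome built of repeats, had 23 members with 1203 and 1550 reads. Wfdc8, an epididymal protease inhibitor, had 23, Glb1l2, a β-galactosidase-like gene, 19, and Tns1, a focal adhesion protein, 19.

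Gene lists were compared by how many genes held a member and by the member share of junction reads, beside 36.9% of all genes with a matched flag A junction and a share of 1.42%. Only members with both ends in 1 gene were counted, so the Lep junction described above, with 1 end in a matched gene, is left out. Counts of genes are over those with a matched flag A junction, while the read shares also take in members of genes without one. Among adipocyte genes 20 of 20 held a member, with a median of 4.5 members a gene against 0 over all genes. Their member share was 5.10%, but 0.565% without Cfd, so Cfd alone made up most of it. Among epididymis genes 15 of 16 held a member, with a median of 6.5 and a share of 0.877%, or 0.496% without Lcn5. Lcn8, an epididymal lipocalin, had 11 members with 375 and 444 reads. Cfd stood at 6724 and 3717 TPM and Lcn8 at 7811 and 3137, and the part of the expression level in these counts was not tested.

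Splicing factors had members in 23 of 30 genes with a share of 2.65% (2.01% without Srsf7), and 41 of their 71 members were listed. Mbnl1 had 14 and Hnrnpc, an hnRNP protein, 7. Matrix genes had them in 10 of 20 with a share of 0.0831% (0.0532% without Col5a1): Col1a1, type I collagen, had 2 members with 39 and 22 reads beside 56680 flag A reads. Cytoskeleton and smooth muscle genes had them in 11 of 16 with 1.18% (0.404% without Myl6). Translation genes had them in 32 of 90 with 0.346% (0.255% without Rpl41). Rpl41, a ribosomal protein gene outside those 90, had 4 listed members with 320 and 356 reads and no matched flag A junction. Immune genes had them in 7 of 17 with 1.33%, or 0.227% without Ighm, the immunoglobulin μ heavy chain. Hosts of small RNAs and other long non-coding genes had them in 4 of 10 and in 2 genes with no matched flag A junction, with a share of 19.03%, or 7.07% without Snhg8, which is 1 of those 2.

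Some members followed each other with no flag A junction between them. Such a run can lie in a gene with flag A junctions elsewhere, as 1 did in Ces5a, which had 8. There were 465 runs of 3 or more members on 1 strand with no flag A junction among them, and 314 of these held no intron listed in GENCODE M21. The run with most reads lay at chr11:101957687-101959172 (plus strand), between the nearest matched genes, Mpp2 at 7.95 kb on its lower side and Ppy at 2.21 kb on its upper side, both on the minus strand. It held 11 members, among them a 94-base intron with 31016 and 18245 reads, an 806-base intron with 16016 and 12511 and a 222-base intron with 5491 and 2746. The deposited contig over it had a coverage of 257 RPKM (reads per kilobase, scaled to the mapped reads), and no gene was matched to it.

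The run of most members, 79, lay at chr12:114660942-114667991 (minus strand), 0.315 kb upstream of the matched introns of Ighm. It had 1094 reads in R1 and 5420 in R2. In 54 members 1 acceptor, at the lowest position of the run, was joined to 54 donors 1298 to 7050 bases away. They had 1002 and 5285 reads in all. The farthest donors, 5783, 6354, 6737 and 7050 bases away, were nearer to even, with 25 and 32, 10 and 16, 42 and 31, and 53 and 43 reads. The distance from the most-read of these donors was a multiple of 5 bases for 43 of the other 53, a unit chosen after the positions were seen. The switch region before the constant exons of the μ chain is known for short tandem repeats, and no mm9 sequence was read here to check the letters. The level of Ighm itself was 238 TPM in replicate 1 and 903 TPM in replicate 2.

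The exonic bases on both sides of the splice lay in deposited contigs of the same strand for 91.4% of the 19199, against 99.3% of reproducible junctions with both flags. In 3.39% neither side did.

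R1 and R2 were set side by side at 20 reads or more, after scaling to total junction reads. Of 6341 members, 1628 (25.7%) were over 2-fold apart, 850 higher in R2 and 778 higher in R1, where over all junctions 14.0% were. Since IDR is computed from R1 and R2, nothing is read from this difference. At 100 reads or more, 18.4% of 1225 members and 7.04% of 57964 junctions with both flags were over 2-fold apart.

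The limit of 0.1 falls in a gap of the deposited values. The highest IDR inside was 0.064, shared by 3180 members of 5 to 18 reads, and the lowest outside was 0.105, shared by 4923 junctions of 4 to 30 reads. Among those just inside with most reads, a junction of Rtcb, the tRNA ligase, had 10 and 5 reads, 1 from BC048679 had 9 and 8, and a junction at chr12:105060458-105103705 had 0 and 18. Just outside, junctions at chr10:79167330-79244575, chr14:66599867-66654433 and chr10:79353730-79614411 had 17 and 13, 8 and 14, and 7 and 13 reads.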

How the data were processed

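Junctions and contigs were deposited on mm9 and gene levels on mm10 with GENCODE M4, per the submitters' processing notes; the mapper, quantifier and meaning of both flags remain not given in the sources used here. The authors deposited junction read counts (R1, R2 and their sum), IDR as a fraction, contig coverage as RPKM, and TPM and expected counts per gene; the other junction name fields and the deposited score columns, and a further whole-number column, were not used. Read totals per replicate are given with the results; no test was made, since the study is 1 group of 2 libraries.

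Members and lists were chosen with earlier results of these data known. Ends were compared by exact mm9 position and strand (python 3.11.15, pandas 2.3.3). Genes were named without converting coordinates. Lengths of 2 consecutive flag A introns and the exon between them had to be found at 1 place of GENCODE M21. Ends of a listed intron took the name of its gene. Any other end was named if the matched flag A introns of only 1 gene spanned it on that strand. An intron counts as listed by the same lengths or by a shared end with a matched flag A intron. Transcript letters came from GENCODE M21. R1 and R2 were compared after adding 0.5 reads. Intervals are Wilson intervals of 95% and cover counting error only, as PCR copies are not independent molecules. The functions were tested on simulated data.

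Named regions follow a rule: the 10 members with most reads, the top 4 per class by reads and by usage (50 reads or more), the 3 longest and shortest, 3 on each side of the IDR limit, 3 runs within 100 kb, the 10 genes with most members and up to 4 genes per list. Moved sites, skipped and extra exons and gene pairs were taken from the most-read of their kind after values were seen. Alternatives were other IDR limits, read minimums, single replicates, partners, contigs, run lengths, TPM limits and scaling.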

Additional observations from a re-analysis of the deposited data

How the results depend on the processing

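Of 56 alternatives set against an interval of the reported value, 24 stayed inside it and 32 moved beyond it. Leaving out the gene of most member reads, which was added after seeing the data, moved 6 of 9 read shares of lists by over 1.5 times. With an IDR limit of 0.05, median usage was 8.93% and the listed share 21.4%. With a limit of 0.01, the classes sharing both ends, the donor, the acceptor and neither were 15.2%, 22.9%, 26.7% and 35.2%, moved acceptors in multiples of 3 were 63.3%, median usage 13.7%, median length 2004 bases, both sides in contigs 90.5% and listed introns 25.6%. With at least 20 reads these were 15.8%, 22.1%, 26.0% and 36.1%, 66.4%, 19.4%, 2163 bases, 88.8% and 28.2%, with moved donors at 35.9% and members within 1 gene at 58.4%; at 100 reads the members over 2-fold apart were 18.4%. The share of acceptor shifts in multiples of 3, mainly 3-base shifts in the full set, thus rose with the read minimum. So did the usage, which is computed from member reads and so depends on that minimum by construction.

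With flag A junctions of IDR 0.1 or less alone, both ends were shared by 12.6%, the acceptor by 26.6% and neither end by 36.5%. Summing the flag A junctions of a site gave a median usage of 6.94%, and the same quantity from 1 replicate alone, leaving out the other, ranged from 7.14% to 7.46%. Contigs of IDR 0.1 or less held both sides of 88.5%. Runs of 3 introns put 56.3% of members in 1 gene and 17.5% on a listed intron. At 5 TPM, 84.3% of host genes counted as expressed. For these moves beyond those fixed by fewer reads, partners or matches, the cause was not tested. No paired analysis was possible because no result comes from a test and both replicates belong to 1 group.

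With a median of 13 reads, many members rest on few reads, so low usage shares carry wide counting error. Unmatched genes, unread mm9 letters and the meaning of the flags limit what can be named.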

Other observations

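The members' share of members plus reproducible junctions with both flags differed along the genome. It was 16.3% on chromosome 12, 16.1% on chromosome 17 and 9.83% on chromosome 4, the lowest of the autosomes. Over the whole genome there were 19199 members beside 139968 junctions with both flags. Chromosome Y held 4 members.

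A pair of runs had most of their reads in 1 replicate. The run of 1700047G03Rik on chromosome 15 had 110 reads in R1 and 1751 in R2 over 10 members. A run of 8 members at chr5:23721722-23725204 had 1632 in R1 and 161 in R2, with no listed intron. The host genes included 5069 protein-coding genes, 77 long intergenic non-coding genes and 66 antisense genes.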
